A study of Homo sapiens with 12 samples.

Results

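The genes described here are 35 genes of glycolysis and of the transcriptional response to low oxygen, chosen by name: glucose transporters, the enzymes from glucose to lactate, regulators of glycolytic flux, lactate transporters, genes induced by hypoxia, and the oxygen-sensing machinery itself. The deposited table holds rows for 33 of the 35 by their Ensembl gene IDs, out of 21996 genes in all. ALDOC and GAPDH were not analysed here. The symbols are those paired with the IDs in the definition of the list, since neither the deposited table nor the reference used here pairs Ensembl IDs with names.

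Arrays measured the RNA of TF-1, a human erythroleukaemia cell line that needs the cytokine GM-CSF to grow. The 12 arrays fell into 4 groups of 3 biological replicates, and the p-values below measure the spread between these arrays. One group carried GNB1 K89E, a mutant G protein beta subunit, in the retroviral vector pMSCVpuro and had been without GM-CSF for 12 hours (K89E withdrawn). The next carried the empty vector and had been without GM-CSF for 12 hours (empty vector withdrawn). The other two carried the mutant or the empty vector and were kept in GM-CSF (K89E GM-CSF and empty vector GM-CSF). All 4 groups had a stably integrated vector, and none carried unmutated GNB1 in it, so effects of the mutation and of extra GNB1 protein cannot be told apart here. The labels do not say whether each line was a pool or a single clone. They name no independently made lines of the same construct, so other differences between the lines cannot be told apart from effects of K89E. The labels name no change of oxygen or glucose in any group. The level of GNB1 and the markers that define TF-1 cells were not analysed here, because their IDs could not be named.

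Glycolysis splits glucose into pyruvate and yields ATP without oxygen, and lactate dehydrogenase then turns pyruvate into lactate so that the pathway can go on. Hypoxia-inducible factor 1, whose alpha subunit is HIF1A, raises transcription of most genes of this pathway and of genes for blood vessel growth, pH control and mitophagy. With oxygen present, prolyl hydroxylases of the EGLN family mark the HIF1A protein for destruction, so its activity is set mainly at the protein level, which these arrays do not measure. In cytokine-dependent blood cells, growth factor signalling through PI3K and AKT is known to sustain glucose uptake and glycolysis.

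HIF binds DNA at a short core, ACGTG or GCGTG. These letters were searched on both strands of RefSeq promoters (GRCh38.p14, 250 bases before to 50 after the start of transcription). On the opposite strand they read CACGT and CACGC, and ACGTG is also part of CACGTG, the E-box that MYC and related factors bind. The table held promoters for 28 of the 33 genes, 55 promoters in all, of which 36 (65.5%) held a match. SLC2A3, SLC16A1, VEGFA, BNIP3L and NDRG1 were not searched. Among all 35116 promoters the share was 48.4%, with no allowance for base composition. At least 1 promoter with a match was listed for 26 of the 28 genes, against 52.4% of all 27305 genes. Genes with more listed promoters have more chances of a match, and the list had more promoters per gene than all genes. No allowance was made for this. The 4 promoters shown first belong to the genes with the largest called changes among those with a match and the fifth to the gene with the largest called change among those without one. Each is written 5′ to 3′ on the strand of the gene, with matches in capitals.
BNIP3 (chr10:131981874-131982173, minus strand): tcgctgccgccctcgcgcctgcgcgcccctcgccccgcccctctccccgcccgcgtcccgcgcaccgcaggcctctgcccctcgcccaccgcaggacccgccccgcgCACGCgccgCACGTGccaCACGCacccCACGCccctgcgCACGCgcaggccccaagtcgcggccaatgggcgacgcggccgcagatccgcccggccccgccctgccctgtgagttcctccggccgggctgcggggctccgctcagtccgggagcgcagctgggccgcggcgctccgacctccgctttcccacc
PFKFB4 (chr3:48556754-48557053, minus strand): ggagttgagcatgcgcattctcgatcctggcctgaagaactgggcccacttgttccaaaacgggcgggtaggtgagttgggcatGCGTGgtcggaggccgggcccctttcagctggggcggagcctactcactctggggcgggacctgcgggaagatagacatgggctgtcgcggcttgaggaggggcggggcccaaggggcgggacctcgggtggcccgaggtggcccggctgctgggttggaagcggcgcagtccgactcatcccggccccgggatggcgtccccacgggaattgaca
HK2 (chr2:74833877-74834176, plus strand): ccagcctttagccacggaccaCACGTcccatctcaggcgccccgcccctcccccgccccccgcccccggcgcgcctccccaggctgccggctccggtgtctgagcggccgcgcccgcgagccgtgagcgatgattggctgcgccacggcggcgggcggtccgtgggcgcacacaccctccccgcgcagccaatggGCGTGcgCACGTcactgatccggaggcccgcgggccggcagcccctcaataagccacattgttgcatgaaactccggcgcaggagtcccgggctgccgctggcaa
SLC2A1 (chr1:42958819-42959118, minus strand): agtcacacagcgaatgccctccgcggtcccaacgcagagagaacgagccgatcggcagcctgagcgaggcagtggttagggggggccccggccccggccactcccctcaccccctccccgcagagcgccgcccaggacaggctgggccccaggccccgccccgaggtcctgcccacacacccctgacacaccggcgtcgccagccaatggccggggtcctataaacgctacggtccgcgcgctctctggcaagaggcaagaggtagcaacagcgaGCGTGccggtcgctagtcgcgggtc
EGLN3 (chr14:33951025-33951324, minus strand): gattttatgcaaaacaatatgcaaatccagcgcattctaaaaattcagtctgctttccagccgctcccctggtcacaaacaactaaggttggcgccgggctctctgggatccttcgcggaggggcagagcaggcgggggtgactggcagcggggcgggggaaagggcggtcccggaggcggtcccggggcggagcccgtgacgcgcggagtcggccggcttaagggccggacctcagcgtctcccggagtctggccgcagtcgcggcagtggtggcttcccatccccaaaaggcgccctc
The BNIP3 promoter held 6 match positions, between 143 and 104 bases before the start site. Among them CACGT at 134 and ACGTG at 133 bases overlap as the palindrome CACGTG, which was thus counted on both strands. HK2 held 3 match positions, PFKFB4 and SLC2A1 held 1 each, and EGLN3 held 0. Another promoter is listed for HK2 and is not shown. On withdrawal in empty vector cells BNIP3, PFKFB4 and SLC2A1 rose and HK2 fell. Because these genes were picked by their change and 26 of the 28 genes held a match, this cannot relate a match to a direction. Among genes with a listed promoter, a match was present for 4 of 4 that rose in empty vector cells, 9 of 10 that fell and 13 of 14 that were not called. Not among them were BNIP3L, NDRG1 and SLC16A1, which rose there, and VEGFA and SLC2A3, which fell. The missing genes include the largest rise (BNIP3L) and the largest fall (VEGFA) of the list in that line. A match describes letters, not a bound site.

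Intensities were deposited as normalized values and were compared on the log2 scale without a pseudocount. A gene was called where limma, fitted to all 12 arrays and adjusted over all 21996 genes, gave an adjusted p under 0.05, and "rose", "fell", "higher" and "lower" are used of called genes. All levels below are log2 intensities, which compare groups for 1 gene but not different genes with each other. Of the 33 genes, 26 lay in the brightest 25% of all genes by mean intensity and 2 below the median level. Bright genes were called more often than dim ones, so shares in the brightest 25% are given beside those over all genes. Array medians ran from 172.6 to 179.9, and across genes any pair of arrays within a group correlated at 0.996 to 0.999 (log2 levels). Hybridisation batches are not labelled, so batch and group cannot be told apart. Arrays are numbered by their replicate.

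Genes of the list moved both ways on withdrawal of GM-CSF, as genes of the whole table did. In K89E cells 7 genes rose, where 7.29% of all genes did, 8 fell, where 10.6% of all genes did, and 18 were not called. In empty vector cells 7 rose, where 8.73% of all genes did, 12 fell, where 11.7% of all genes did, and 14 were not called. The mitophagy receptors BNIP3L and BNIP3, the stress-response gene NDRG1, the glucose transporter SLC2A1 and the flux regulator PFKFB4 rose in both lines, while VEGFA, the oxygen sensor EGLN3, HK2, PFKP, ENO1, PKM and PFKFB3 fell in both. These 5 shared rises are 71.4% of the rises in each line, and the 7 shared falls are 87.5% of the falls in K89E cells and 58.3% of those in empty vector cells. The responses of both lines share no array. The overlap of calls between the lines was not taken over all genes or over bright genes. The shares of shared calls are therefore not read as a result about the list. No change of any gene in the list reached 2-fold in any comparison.

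Shares of the list were also read against bright genes. In K89E cells 21.2% of the list rose and 24.2% fell, where 12.9% of the brightest 25% rose and 28.6% fell. In empty vector cells 21.2% of the list rose and 36.4% fell, where 16.4% of the brightest 25% rose and 30% fell. The count of 12 falls in empty vector cells was 6 with a prior variance without a trend, 15 after centring on array medians or with array weights, and 7 with empty vector GM-CSF array 2 left out. The falls in both lines and the rises in empty vector cells had shares near those of bright genes. They are not read as a result about the list. The share of rises in K89E cells was not tested against that of bright genes. Median log2 changes of the list were -0.023 in K89E and -0.059 in empty vector cells. The median over all genes was 0.017 in K89E and 0.013 in empty vector cells, and in the brightest 25% it was -0.041 in K89E and -0.040 in empty vector cells. The arrays of both conditions did not overlap for 19 of the 33 genes in K89E cells (31.8% of all genes) and for 22 in empty vector cells (35.7% of all genes). In no comparison was the share without overlap taken over the brightest 25%, so these counts are not read as a result about the list.

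**Figure D1:**
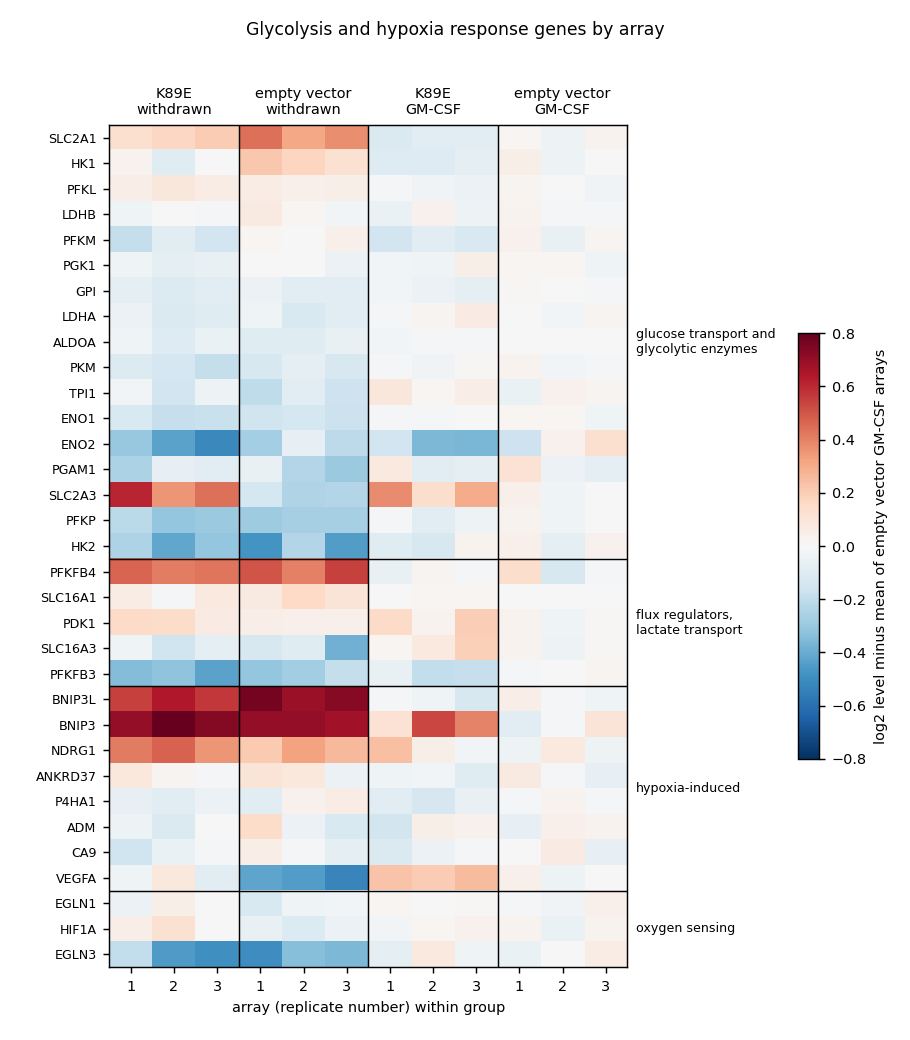
Log2 level of each of the 33 genes (rows, by role) on each of the 12 arrays (columns, by group), minus the mean of that gene's 3 empty vector GM-CSF arrays; red is higher and blue lower. BNIP3L, BNIP3 and PFKFB4 are red on all 6 withdrawn arrays, HK2 and EGLN3 are blue there, SLC2A3 is red on the K89E arrays and VEGFA is blue on the empty vector withdrawn arrays.

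Among the 8 genes induced by hypoxia, 3 rose on withdrawal in each line, 1 fell and 4 were not called. Over all genes 7.29% rose and 10.6% fell in K89E cells, and 8.73% rose and 11.7% fell in empty vector cells. Among bright genes 12.9% rose and 28.6% fell in K89E cells, and 16.4% rose and 30% fell in empty vector cells. The counts among these 8 genes were not tested against either share. BNIP3L (ENSG00000104765_at), which sits in the outer mitochondrial membrane and marks mitochondria for removal by autophagy, including in maturing red cells, had the largest rise of the list in both lines. In K89E cells it read 11.45, 11.55 and 11.47 on withdrawn arrays, against 10.90, 10.87 and 10.78 with GM-CSF. In empty vector cells the withdrawn arrays read 11.67, 11.60 and 11.64, against 10.96, 10.89 and 10.87 with GM-CSF. All 6 withdrawn arrays lay above all 6 GM-CSF arrays. The log2 change was 0.64 (SE 0.038, limma adjusted p = 1.6e-07) in K89E cells. It was 0.73 (SE 0.038, limma adjusted p = 2.81e-08) in empty vector cells, a 1.66-fold rise. In these bulk cultures, a higher level in every cell and a larger share of cells with a high level cannot be told apart.

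BNIP3 (ENSG00000176171_at), the close relative of BNIP3L with the same role in mitophagy, read 11.27, 11.38 and 11.30 on K89E withdrawn arrays, against 10.68, 11.10 and 10.97 on K89E GM-CSF arrays. The K89E GM-CSF arrays spread widely, with replicate 1 the lowest. Empty vector arrays read 11.27, 11.27 and 11.24 after withdrawal, against 10.48, 10.55 and 10.67 with GM-CSF. Withdrawn and GM-CSF arrays did not overlap in either line, and the withdrawn arrays of the lines overlapped each other. The log2 change was 0.40 (SE 0.078, limma adjusted p = 0.00232) in K89E cells. For the empty vector line it was 0.69 (SE 0.078, limma adjusted p = 2.13e-05), or 1.62-fold. NDRG1, which encodes a stress-induced cytoplasmic protein, read 8.59, 8.65 and 8.53 in K89E withdrawn cells, against 8.42, 8.22 and 8.15 with GM-CSF. Its empty vector arrays read 8.39, 8.50 and 8.44 after withdrawal, against 8.14, 8.26 and 8.14 with GM-CSF. Both lines again gave withdrawn arrays above GM-CSF arrays, by 0.33 (SE 0.065, limma adjusted p = 0.00298) in K89E cells. Empty vector cells changed by 0.26 (SE 0.065, limma adjusted p = 0.00945).

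VEGFA (ENSG00000112715_at), the main growth factor for blood vessels and a standard HIF target, moved the other way. Its levels were 9.42, 9.54 and 9.37 in K89E withdrawn cells, against 9.68, 9.66 and 9.70 with GM-CSF. They were 9.03, 9.01 and 8.93 in empty vector withdrawn cells, against 9.49, 9.41 and 9.45 with GM-CSF. Withdrawn arrays lay below GM-CSF arrays in both lines, and K89E withdrawn arrays overlapped the empty vector arrays that had GM-CSF. The log2 change was -0.24 (SE 0.045, limma adjusted p = 0.00206) in K89E cells. It was -0.46 (SE 0.045, limma adjusted p = 6.82e-06) in empty vector cells, where no other gene of the list fell as far. CA9, a membrane carbonic anhydrase that is among the most HIF-dependent genes known, ADM, which encodes the vasodilator adrenomedullin, P4HA1, a collagen prolyl hydroxylase, and ANKRD37 were not called in any comparison. Their withdrawal changes ran from -0.035 for ADM to 0.082 for ANKRD37 in K89E cells, and from -0.015 for CA9 to 0.046 for ANKRD37 in empty vector cells. The 95% interval for CA9 was -0.16 to 0.11 in K89E and -0.15 to 0.12 in empty vector cells. CA9 was among the 2 genes below the median level of the table, and the part of its low level in these values was not tested.

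Of the 3 oxygen-sensing genes, EGLN3 (ENSG00000129521_at) fell in both lines. It encodes a HIF prolyl hydroxylase that is itself a HIF target. K89E arrays read 8.18, 7.93 and 7.89 after withdrawal, against 8.30, 8.46 and 8.35 with GM-CSF. Empty vector arrays read 7.89, 8.04 and 8.02 after withdrawal, against 8.33, 8.38 and 8.44 with GM-CSF. Neither line overlapped between conditions, and K89E withdrawn replicate 1 stood above the other withdrawn arrays. The change was -0.37 (SE 0.075, limma adjusted p = 0.00307) in K89E cells. Empty vector cells gave -0.40 (SE 0.075, limma adjusted p = 0.0014). EGLN1, the main HIF prolyl hydroxylase at normal oxygen, was not called, at -0.011 in K89E and -0.059 in empty vector cells. HIF1A (ENSG00000100644_at) read 11.13, 11.20 and 11.08 on K89E withdrawn arrays, against 11.06, 11.09 and 11.11 with GM-CSF. Empty vector arrays read 11.02, 10.97 and 11.03 after withdrawal, against 11.11, 11.03 and 11.11 with GM-CSF. HIF1A groups overlapped in both lines and neither change was called, at 0.051 (SE 0.035, limma adjusted p = 0.377) in K89E cells and -0.074 (SE 0.035, limma adjusted p = 0.176) in empty vector cells. The empty vector change of HIF1A was called after centring on array medians (-0.11) and with array weights (-0.093).

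**Figure D2:**
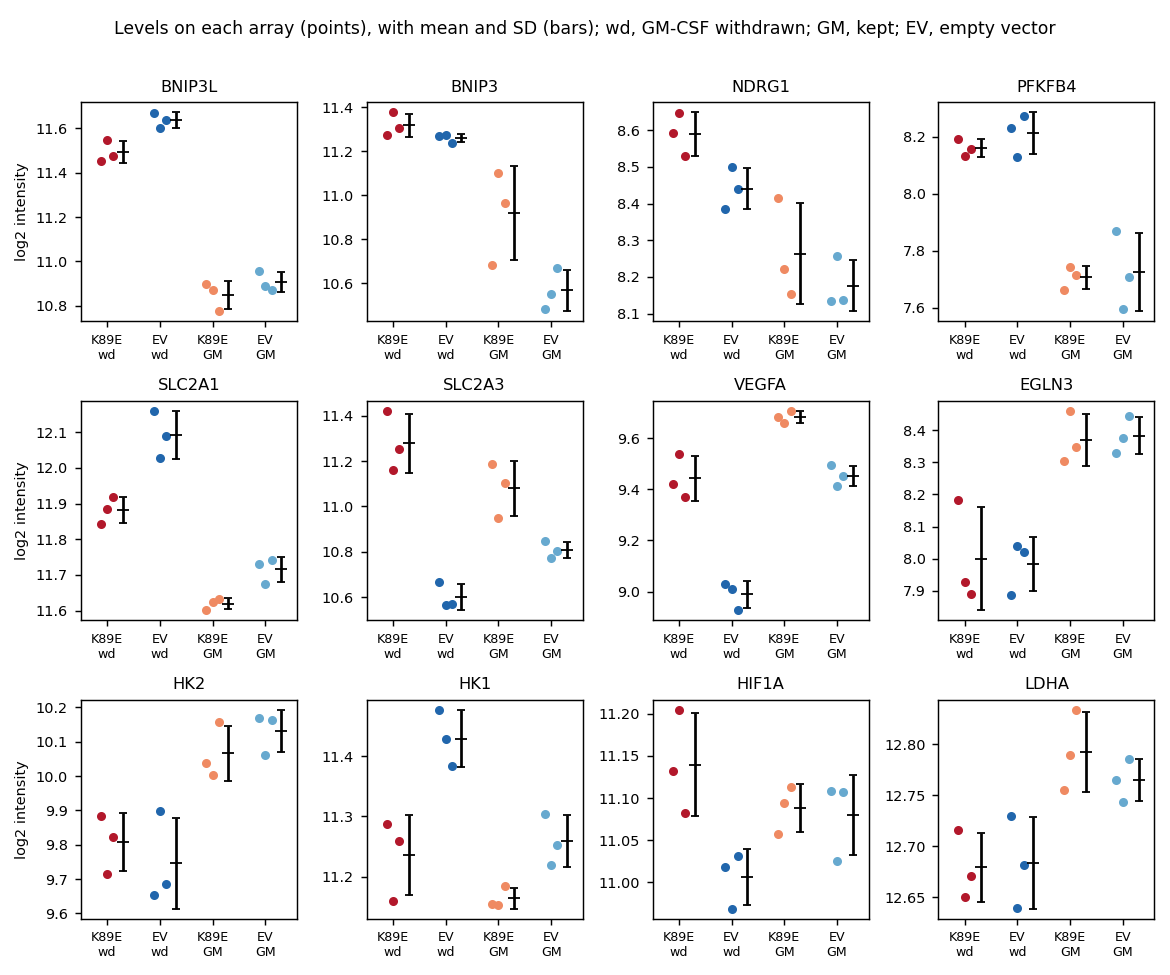
Log2 intensity (vertical axes, each with its own range that does not start at 0) of 12 genes in the 4 groups, with 1 point per array and the mean ± SD of 3 arrays as a bar. BNIP3L, BNIP3, NDRG1, PFKFB4 and SLC2A1 lie higher on withdrawn arrays than on GM-CSF arrays of the same line, SLC2A3 separates the lines, and HIF1A spans only 10.97 to 11.20 over all arrays.

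The glucose transporters and glycolytic enzymes comprised 17 measured genes. In K89E cells 3 rose and 5 fell, and in empty vector cells 2 rose and 8 fell. These are 17.6% and 29.4% of them in K89E cells, where 12.9% of the brightest 25% rose and 28.6% fell. The empty vector shares are 11.8% and 47.1%, where 16.4% of the brightest 25% rose and 30% fell. Of all genes, 7.29% rose and 10.6% fell in K89E cells, and 8.73% rose and 11.7% fell in empty vector cells. The medians of their log2 changes were -0.057 in K89E and -0.084 in empty vector cells, both below those of the brightest 25%. Neither these shares nor these medians were tested against those of bright genes, and they are not read as a result about the enzymes. Of the falls in empty vector cells, those of GPI, ALDOA, TPI1, PKM and SLC2A3 were each lost under at least 1 alternative. Those of HK2, PFKP and ENO1 were kept in all 21. SLC2A1 (ENSG00000117394_at), the glucose transporter GLUT1 of red cells and their precursors, rose in both lines. It read 11.84, 11.88 and 11.92 in K89E withdrawn cells, against 11.60, 11.63 and 11.63 with GM-CSF. It read 12.16, 12.03 and 12.09 in empty vector withdrawn cells, against 11.73, 11.68 and 11.74 with GM-CSF. No arrays overlapped between conditions, and withdrawn arrays of empty vector cells were the highest of all. The log2 change was 0.26 (SE 0.033, limma adjusted p = 8.52e-05) in K89E cells. The empty vector change was 0.38 (SE 0.033, limma adjusted p = 2.53e-06), a 1.30-fold rise.

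SLC2A3 (ENSG00000059804_at), the high-affinity glucose transporter GLUT3, was the only gene of the list called in opposite directions on withdrawal. Its K89E arrays read 11.42, 11.16 and 11.25 after withdrawal, against 11.19, 10.95 and 11.10 with GM-CSF. Its empty vector arrays read 10.67, 10.56 and 10.57 after withdrawal, against 10.85, 10.77 and 10.80 with GM-CSF. K89E arrays of both conditions overlapped, while empty vector arrays did not. The change was 0.20 (SE 0.063, limma adjusted p = 0.0426) in K89E cells. It was -0.21 (SE 0.063, limma adjusted p = 0.0312) in empty vector cells. The K89E call was lost in 13 of 21 alternatives, among them with K89E withdrawn arrays 1 or 3, K89E GM-CSF arrays 2 or 3, empty vector withdrawn arrays 2 or 3 or any empty vector GM-CSF array left out (limma adjusted p = 0.0522 to 0.181), and under a prior variance without a trend, a robust prior variance, centring on array medians or a fit on the 2 groups alone (limma adjusted p = 0.0539 to 0.11). The empty vector call was lost in 7 of 21, among them with empty vector withdrawn arrays 2 or 3 or any empty vector GM-CSF array left out (limma adjusted p = 0.0563 to 0.103), and under a prior variance without a trend or quantile normalization (limma adjusted p = 0.0739 to 0.091). The sign stayed the same in all of these.

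Hexokinases trap glucose in the cell as glucose 6-phosphate. HK2 (ENSG00000159399_at), the isoform of proliferating and hypoxic cells, read 9.88, 9.72 and 9.82 in K89E withdrawn cells, against 10.04, 10.00 and 10.16 with GM-CSF. Empty vector arrays read 9.65, 9.90 and 9.69 after withdrawal, against 10.17, 10.06 and 10.16 with GM-CSF. Arrays did not overlap in either line. HK2 fell by 0.26 on the log2 scale in K89E cells (SE 0.064, limma adjusted p = 0.0107). The fall was lost with K89E withdrawn array 2 or K89E GM-CSF array 3 left out (limma adjusted p = 0.0527 to 0.0577). The change of HK2 in empty vector cells was -0.39 (SE 0.064, limma adjusted p = 0.000547). HK1, the broadly expressed isoform, read 11.29, 11.16 and 11.26 in K89E withdrawn cells, against 11.15, 11.15 and 11.18 with GM-CSF. In empty vector cells it read 11.48, 11.43 and 11.38 after withdrawal, against 11.30, 11.22 and 11.25 with GM-CSF, and these arrays did not overlap. HK1 rose in empty vector cells (0.17, SE 0.036, limma adjusted p = 0.00338) and was not called in K89E cells (0.072, SE 0.036, limma adjusted p = 0.208), where 1 of 21 alternatives called it higher.

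Phosphofructokinase commits sugar to glycolysis, and its platelet-type subunit PFKP fell in both lines. PFKP read 10.15, 10.06 and 10.08 on K89E withdrawn arrays, against 10.36, 10.29 and 10.33 on K89E GM-CSF arrays. On empty vector arrays it read 10.09, 10.11 and 10.11 after withdrawal, against 10.40, 10.34 and 10.37 with GM-CSF. Arrays of the conditions did not overlap in either line, and the change was -0.23 (SE 0.033, limma adjusted p = 0.000287) in K89E cells. The empty vector change was -0.27 (SE 0.033, limma adjusted p = 4.9e-05). The liver-type subunit PFKL read 9.66, 9.70 and 9.67 in K89E withdrawn cells, against 9.59, 9.58 and 9.56 with GM-CSF, a rise of 0.097 (SE 0.031, limma adjusted p = 0.0417) with no overlap. That call was lost in 15 of 21 alternatives, among them with any K89E withdrawn array, any K89E GM-CSF array, empty vector withdrawn array 2 or any empty vector GM-CSF array left out (limma adjusted p = 0.0537 to 0.132), and under a prior variance without a trend, centring on array medians, array weights or a fit on the 2 groups alone (limma adjusted p = 0.0518 to 0.124). In empty vector cells PFKL was not called (0.049, SE 0.031, limma adjusted p = 0.32). The muscle-type subunit PFKM was not called in either line, at -0.023 in K89E and 0.017 in empty vector cells.

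Among the enzymes of the later steps of the pathway the falls were small. ENO1, the enolase of most tissues, read 13.40, 13.34 and 13.34 in K89E withdrawn cells, against 13.51, 13.51 and 13.51 with GM-CSF. Empty vector arrays read 13.36, 13.38 and 13.35 after withdrawal, against 13.54, 13.54 and 13.49 with GM-CSF. ENO1 fell by nearly the same amount in both lines, with changes of -0.15 (SE 0.022, limma adjusted p = 0.00029) in K89E and -0.16 (SE 0.022, limma adjusted p = 0.000153) in empty vector cells. PKM, which makes pyruvate in the last step, read 12.56, 12.53 and 12.48 in K89E withdrawn cells, against 12.65, 12.64 and 12.68 with GM-CSF. The empty vector arrays of PKM read 12.54, 12.59 and 12.54 after withdrawal, against 12.69, 12.64 and 12.66 with GM-CSF. PKM arrays did not overlap in either line, and the changes were -0.13 (SE 0.026, limma adjusted p = 0.00216) in K89E and -0.11 (SE 0.026, limma adjusted p = 0.0071) in empty vector cells. The empty vector call of PKM was lost with a prior variance without a trend (limma adjusted p = 0.0675).

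LDHA, the subunit of lactate dehydrogenase that favours lactate and a standard HIF target, read 12.72, 12.65 and 12.67 in K89E withdrawn cells, against 12.75, 12.79 and 12.83 with GM-CSF. Its empty vector arrays read 12.73, 12.64 and 12.68 after withdrawal, against 12.76, 12.74 and 12.79 with GM-CSF. Arrays did not overlap in either line. LDHA fell in K89E cells (-0.11, SE 0.028, limma adjusted p = 0.0118) and was not called in empty vector cells (-0.081, SE 0.028, limma adjusted p = 0.0582), where 7 of 21 alternatives called it lower. The K89E call was lost with K89E withdrawn array 2 or K89E GM-CSF array 3 left out (limma adjusted p = 0.0524 to 0.0579), and under a prior variance without a trend or quantile normalization (limma adjusted p = 0.0797 to 0.1). The difference between these responses was not called, at -0.032 with a 95% interval of -0.12 to 0.054.

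Another 3 enzymes fell by the call in empty vector cells and not in K89E cells. TPI1, which interconverts the triose phosphates, changed by -0.15 (SE 0.042, limma adjusted p = 0.0176). GPI, which isomerises glucose 6-phosphate, changed by -0.078 (SE 0.021, limma adjusted p = 0.0173). ALDOA, the aldolase of muscle and red cells, changed by -0.084 (SE 0.026, limma adjusted p = 0.0355). In K89E cells TPI1 gave -0.13, GPI -0.042 and ALDOA -0.046, and for none of the 3 was the difference between the lines called. TPI1 narrowly missed the call in K89E cells (limma adjusted p = 0.0528) and was called lower there under 5 of 21 alternatives, among them without the dimmest 33.3% of genes (limma adjusted p = 0.0353). The call of TPI1 was lost with empty vector withdrawn arrays 1 or 3 or empty vector GM-CSF arrays 2 or 3 left out (limma adjusted p = 0.0527 to 0.079), that of GPI with empty vector withdrawn arrays 2 or 3 or empty vector GM-CSF arrays 1 or 2 left out (limma adjusted p = 0.0618 to 0.0694), and that of ALDOA with empty vector withdrawn arrays 1 or 2 or any empty vector GM-CSF array left out (limma adjusted p = 0.0805 to 0.111). All 3 were lost with a prior variance without a trend (limma adjusted p = 0.0514 for TPI1, 0.157 for GPI and 0.121 for ALDOA), and that of ALDOA also after quantile normalization (limma adjusted p = 0.368, log2 change -0.039). The phosphoglycerate enzymes PGK1 and PGAM1, the neuronal enolase ENO2 and the lactate dehydrogenase subunit LDHB were not called on withdrawal in either line, with changes from -0.12 to 0.0074 in K89E and from -0.20 to 0.022 in empty vector cells. PGAM1 was called lower in empty vector cells under 5 of 21 alternatives, among them without the dimmest 33.3% of genes (limma adjusted p = 0.0426).

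The 5 flux regulators and lactate transporters also parted. PFKFB4 (ENSG00000114268_at), a bifunctional enzyme that sets the level of fructose 2,6-bisphosphate, the activator of phosphofructokinase, read 8.19, 8.13 and 8.16 in K89E withdrawn cells, against 7.66, 7.74 and 7.72 with GM-CSF. Empty vector arrays read 8.23, 8.13 and 8.27 after withdrawal, against 7.87, 7.60 and 7.71 with GM-CSF. Its rise was 0.45 (SE 0.065, limma adjusted p = 0.00026) in K89E cells. It was 0.49 (SE 0.065, limma adjusted p = 0.000103) in empty vector cells, or 1.40-fold. PFKFB3, the isoform with the strongest kinase activity, fell. It read 9.09, 9.12 and 9.01 in K89E withdrawn cells, against 9.38, 9.24 and 9.26 with GM-CSF. Empty vector arrays of PFKFB3 read 9.14, 9.16 and 9.25 after withdrawal, against 9.42, 9.44 and 9.46 with GM-CSF. Neither isoform had overlapping arrays, and the changes of PFKFB3 were -0.22 (SE 0.047, limma adjusted p = 0.00438) in K89E and -0.26 (SE 0.047, limma adjusted p = 0.00107) in empty vector cells.

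PDK1, a kinase that inhibits pyruvate dehydrogenase and a standard HIF target, was not called. It read 10.29, 10.28 and 10.20 in K89E withdrawn cells, against 10.29, 10.16 and 10.34 with GM-CSF. In empty vector cells it read 10.19, 10.17 and 10.18 after withdrawal, against 10.17, 10.10 and 10.14 with GM-CSF, where arrays did not overlap but the change was only 0.043 (SE 0.042, limma adjusted p = 0.562). SLC16A1, the lactate and pyruvate carrier MCT1, read 11.01, 11.09 and 11.04 in empty vector withdrawn cells, against 10.94, 10.93 and 10.94 with GM-CSF. It rose there by 0.11 (SE 0.030, limma adjusted p = 0.0147). SLC16A3, the lactate exporter MCT4, read 9.61, 9.64 and 9.35 in empty vector withdrawn cells, against 9.77, 9.70 and 9.75 with GM-CSF, and replicate 3 was the lowest. Its arrays did not overlap, and the change was -0.20 (SE 0.066, limma adjusted p = 0.0433). Neither transporter was called in K89E cells, at 0.033 for SLC16A1 and -0.18 for SLC16A3, which 2 of 21 alternatives called lower there. The call of SLC16A1 was lost with empty vector withdrawn array 2 or empty vector GM-CSF array 2 left out (limma adjusted p = 0.0527 to 0.0761), and under a prior variance without a trend or centring on array medians (limma adjusted p = 0.0655 to 0.132). The call of SLC16A3 was lost with K89E withdrawn array 3, K89E GM-CSF array 2, empty vector withdrawn array 3 or any empty vector GM-CSF array left out (limma adjusted p = 0.0542 to 0.161), and under a prior variance without a trend, quantile normalization or a fit on the 2 groups alone (limma adjusted p = 0.0574 to 0.103). Without empty vector withdrawn replicate 3 the change of SLC16A3 was -0.11.

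**Figure D3:**
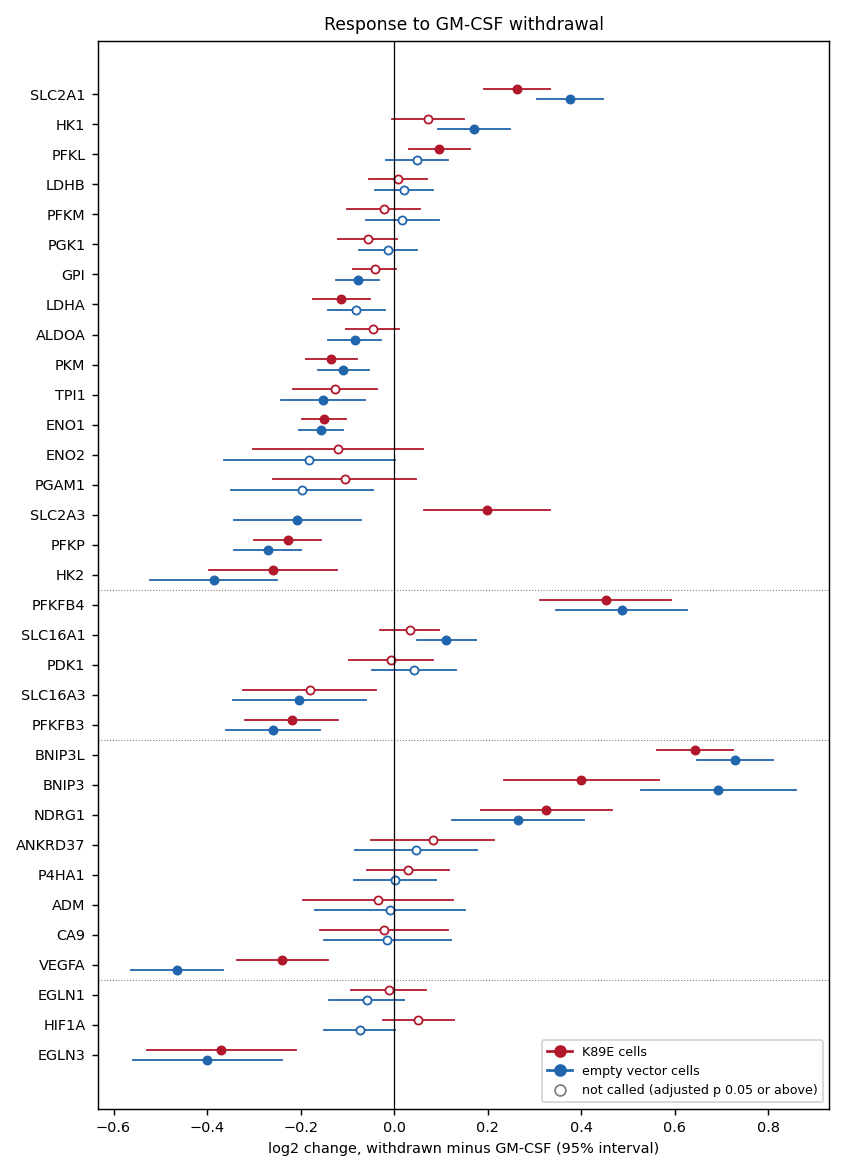
Log2 change on GM-CSF withdrawal (horizontal axis, withdrawn minus GM-CSF) of each gene, with its 95% interval, in K89E cells (red) and empty vector cells (blue); filled points were called, and dotted lines part the roles. BNIP3L reaches 0.64 in K89E and 0.73 in empty vector cells, VEGFA -0.24 in K89E and -0.46 in empty vector cells, and SLC2A3 lies on opposite sides of 0.

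Within each array the log2 ratio of the related genes was taken, which compares their changes but not their levels. Of 11 such pairs, the ratio did not overlap between withdrawn and GM-CSF arrays for 8 in K89E cells and for 8 in empty vector cells. Among single genes 31.8% in K89E and 35.7% in empty vector cells had this pattern, no share was taken over other gene pairs, and the 3 phosphofructokinase pairs share genes. Both genes of a pair were called in opposite directions for 2 pairs in K89E cells and for 4 in empty vector cells. Of these, PFKL/PFKP in K89E cells rested on a PFKL call lost in 15 of 21 alternatives. In empty vector cells the calls of SLC2A3, SLC16A1 and SLC16A3 were lost in 7, 4 and 10 of 21. Calls of PFKFB4 and PFKFB3 in both lines and of HK1 and HK2 in empty vector cells were kept in all 21. The ratio of PFKFB4 to PFKFB3 moved by 0.67 in K89E and by 0.75 in empty vector cells (1.68-fold). That of HK1 to HK2 moved by 0.33 in K89E and by 0.56 in empty vector cells. For EGLN1 to EGLN3 the shifts were 0.36 in K89E and 0.34 in empty vector cells. For PFKL to PFKP they were 0.32 in K89E and 0.32 in empty vector cells. SLC2A1 to SLC2A3 moved by 0.064 in K89E cells, where the arrays overlapped, and by 0.58 in empty vector cells, where they did not. BNIP3L to BNIP3 and ENO1 to ENO2 overlapped in both lines. The ratios were not tested and are given as a description.

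**Figure D4:**
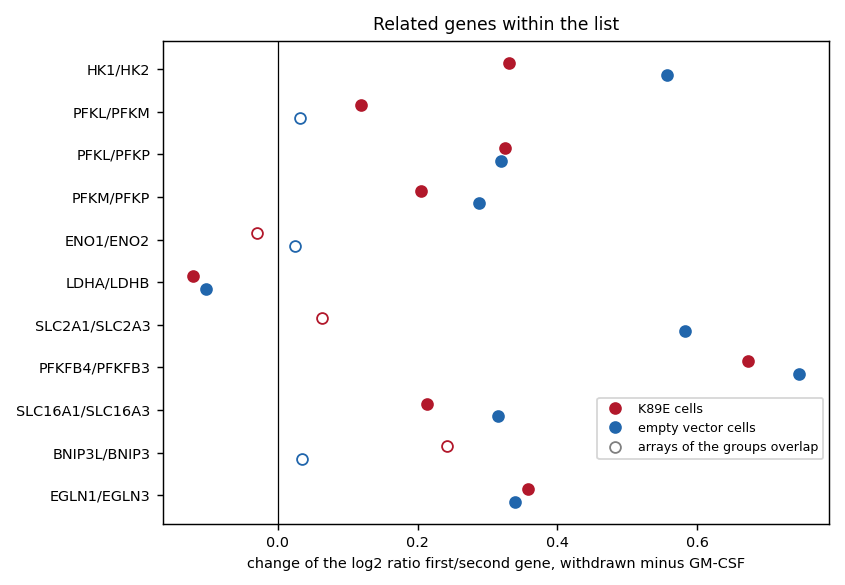
Change on withdrawal of the log2 ratio between related genes (horizontal axis, withdrawn minus GM-CSF) for 11 pairs, in K89E (red) and empty vector cells (blue); filled points mark ratios whose withdrawn and GM-CSF arrays did not overlap. PFKFB4/PFKFB3 lies farthest to the right in both lines, at 0.67 in K89E and 0.75 in empty vector cells, and LDHA/LDHB is the only filled pair to the left of 0.

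K89E cells without GM-CSF differed from empty vector cells without GM-CSF in 7 genes of the list. Of these, 3 were higher in K89E cells (9.09% of the list, 6.52% of all genes, 11.7% of the brightest 25%) and 4 were lower (12.1% of the list, 6.01% of all genes, 13.1% of the brightest 25%). Both shares lay near those of bright genes. Arrays of the lines did not overlap for 11 of the 33 genes, where 25.4% of all genes had this pattern. The genes higher were SLC2A3, VEGFA and HIF1A, and those lower were SLC2A1, HK1, PFKM and BNIP3L. With GM-CSF kept, 3 genes were higher in K89E cells (9.09% of the list, 5.21% of all genes, 10.4% of the brightest 25%), namely BNIP3, SLC2A3 and VEGFA. ENO2 was lower (3.03% of the list, 4.39% of all genes, 10.2% of the brightest 25%). Here 10 of the 33 genes had arrays that did not overlap, against 28.7% of all genes. None of the 5 flux regulators and lactate transporters was called in either condition by limma, though at an unadjusted p under 0.05 there were 2 after withdrawal and 2 with GM-CSF, and with GM-CSF PFKFB3 and PDK1 were each called under at least 1 alternative.

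SLC2A3 and VEGFA were higher in K89E cells under both conditions, which share no array. After withdrawal SLC2A3 read 11.42, 11.16 and 11.25 in K89E cells, against 10.67, 10.56 and 10.57 in empty vector cells. Every K89E array lay above every empty vector array, by 0.68 (SE 0.063, limma adjusted p = 7.56e-06), or 1.60-fold. With GM-CSF the K89E arrays again lay above, at 11.19, 10.95 and 11.10 against 10.85, 10.77 and 10.80. That difference was 0.27 (SE 0.063, limma adjusted p = 0.0134), and its call was lost with K89E GM-CSF arrays 1 or 3 or empty vector GM-CSF array 2 left out (limma adjusted p = 0.0505 to 0.0609). The 4 groups thus ran from K89E withdrawn through K89E GM-CSF and empty vector GM-CSF down to empty vector withdrawn, with overlap only between the K89E groups. VEGFA read 9.42, 9.54 and 9.37 in K89E withdrawn cells, against 9.03, 9.01 and 8.93 in empty vector withdrawn cells. The difference was 0.45 (SE 0.045, limma adjusted p = 1.42e-05), or 1.37-fold. With GM-CSF it read 9.68, 9.66 and 9.70 in K89E cells, against 9.49, 9.41 and 9.45 in empty vector cells, a difference of 0.23 (SE 0.045, limma adjusted p = 0.00505).

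SLC2A1 was lower in K89E withdrawn cells, at 11.84, 11.88 and 11.92, against 12.16, 12.03 and 12.09 in empty vector withdrawn cells. The arrays did not overlap, and the difference was -0.21 (SE 0.033, limma adjusted p = 0.000704). SLC2A1 and SLC2A3 therefore differed between the lines in opposite directions, and the ratio of SLC2A1 to SLC2A3 was lower in K89E withdrawn cells by 0.89 on the log2 scale (1.85-fold), with no overlap. HK1 read 11.29, 11.16 and 11.26 in K89E withdrawn cells, against 11.48, 11.43 and 11.38 in empty vector withdrawn cells. These arrays did not overlap, and the difference was -0.19 (SE 0.036, limma adjusted p = 0.00262). PFKM read 10.24, 10.34 and 10.27 in K89E withdrawn cells, against 10.44, 10.42 and 10.46 in empty vector withdrawn cells. PFKM arrays did not overlap, and the difference was -0.16 (SE 0.036, limma adjusted p = 0.00942). With GM-CSF kept, SLC2A1 differed by -0.096 (SE 0.033, limma adjusted p = 0.0899), HK1 by -0.095 (SE 0.036, limma adjusted p = 0.133) and PFKM by -0.12 (SE 0.036, limma adjusted p = 0.0518), none of which was called, though each was called with array weights (log2 differences of -0.095, -0.095 and -0.11).

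BNIP3L read 11.45, 11.55 and 11.47 in K89E withdrawn cells, against 11.67, 11.60 and 11.64 in empty vector withdrawn cells. It was lower in K89E cells, with a difference of -0.14 (SE 0.038, limma adjusted p = 0.0213) and no overlap, a call lost with K89E withdrawn arrays 1 or 3 or empty vector withdrawn arrays 1 or 3 left out (limma adjusted p = 0.0582 to 0.0832), and under a prior variance without a trend (limma adjusted p = 0.0759). HIF1A read 11.13, 11.20 and 11.08 in K89E withdrawn cells, against 11.02, 10.97 and 11.03 in empty vector withdrawn cells. Its K89E arrays were higher by 0.13 (SE 0.035, limma adjusted p = 0.0221), or 1.10-fold, with no overlap, a call lost with K89E withdrawn arrays 1 or 2 or empty vector withdrawn array 2 left out (limma adjusted p = 0.0502 to 0.0935), and under a prior variance without a trend or a fit on the 2 groups alone (limma adjusted p = 0.0561 to 0.0801). With GM-CSF kept HIF1A differed by 0.0082 (SE 0.035, limma adjusted p = 0.95), which was not called. LDHA, HK2 and PDK1 were not called between the lines in either condition. After withdrawal their differences were -0.0045 for LDHA, with a 95% interval of -0.065 to 0.056, 0.062 for HK2, with -0.075 to 0.20, and 0.078 for PDK1, with -0.012 to 0.17.

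With GM-CSF kept, BNIP3 was higher in K89E cells, at 10.68, 11.10 and 10.97 against 10.48, 10.55 and 10.67 in empty vector cells. Arrays did not overlap, but K89E replicate 1 lay just above empty vector replicate 3. The difference was 0.35 (SE 0.078, limma adjusted p = 0.01), and its call was lost with empty vector GM-CSF array 1 left out (limma adjusted p = 0.0518). After withdrawal the lines did not differ by the call in BNIP3 (0.057, SE 0.078, limma adjusted p = 0.722). ENO2 read 8.32, 8.11 and 8.11 in K89E GM-CSF cells, against 8.31, 8.51 and 8.60 in empty vector GM-CSF cells, and the arrays overlapped. ENO2 was lower in K89E cells, with a difference of -0.29 (SE 0.085, limma adjusted p = 0.0442). That call was lost in 9 of 21 alternatives, among them with K89E withdrawn array 2, K89E GM-CSF arrays 2 or 3, empty vector withdrawn array 3 or empty vector GM-CSF arrays 2 or 3 left out (limma adjusted p = 0.0518 to 0.194), and under a prior variance without a trend or a fit on the 2 groups alone (limma adjusted p = 0.0521 to 0.0798). After withdrawal ENO2 read 8.17, 8.05 and 7.96 in K89E cells, against 8.20, 8.41 and 8.26 in empty vector cells, a difference of -0.23 (SE 0.085, limma adjusted p = 0.0963) that was not called.

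**Figure D5:**
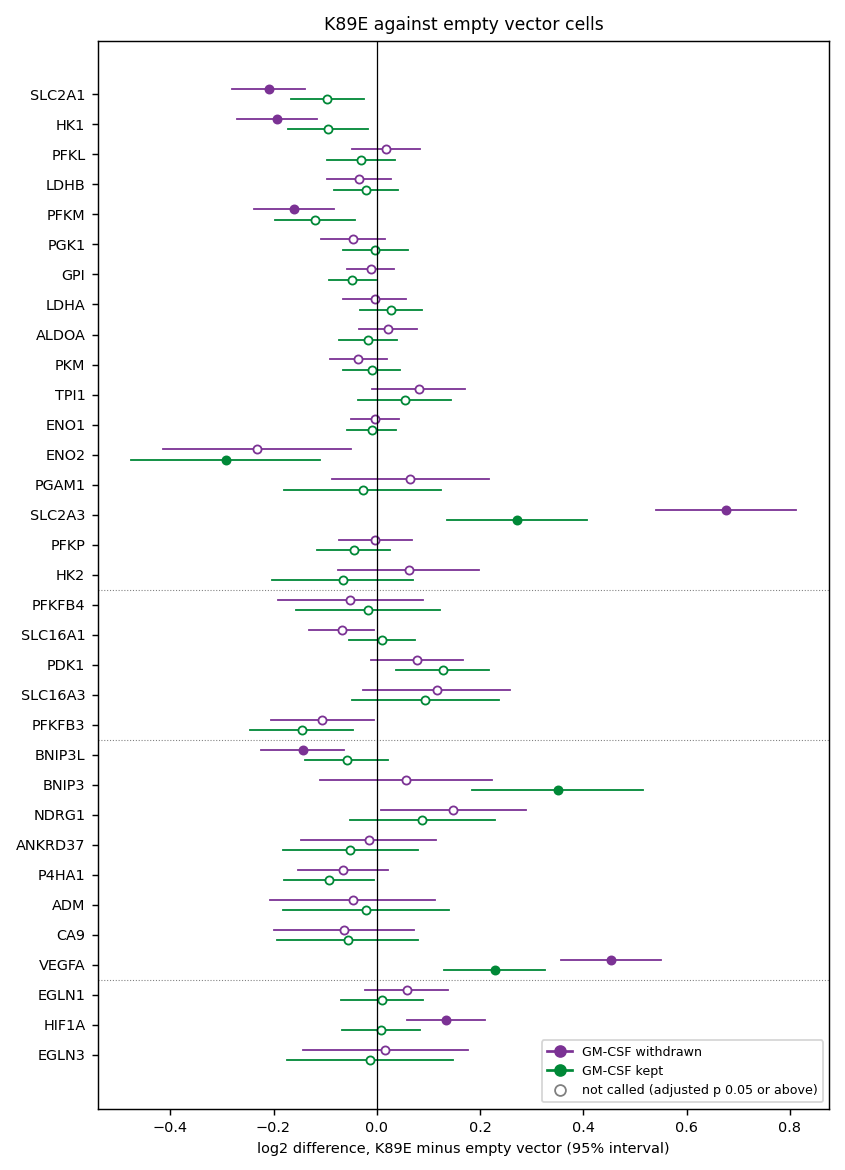
Log2 difference between the lines (horizontal axis, K89E minus empty vector) of each gene, with its 95% interval, with GM-CSF withdrawn (purple) and kept (green); filled points were called. SLC2A3 (0.68 after withdrawal, 0.27 with GM-CSF) and VEGFA (0.45 after withdrawal, 0.23 with GM-CSF) lie to the right in both conditions, and most enzymes lie near 0.

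The difference between the withdrawal responses of the lines was called for 0 of the 33 genes by limma, where 0.0682% of all genes were called. At an unadjusted p under 0.05 there were 5 genes, SLC2A3, VEGFA, BNIP3, HIF1A and SLC2A1. The largest was that of SLC2A3, at 0.41 (K89E response minus empty vector response, SE 0.089, limma adjusted p = 0.239, 95% interval 0.21 to 0.60). This difference of SLC2A3 was called under 1 alternative, described at the end. VEGFA gave 0.23 (SE 0.064, limma adjusted p = 0.511), with the smaller fall in K89E cells. BNIP3 gave -0.29 (SE 0.11, limma adjusted p = 0.795), with its level higher in K89E than in empty vector cells when GM-CSF was kept. HIF1A gave 0.13 (SE 0.050, limma adjusted p = 0.83), and SLC2A1 gave -0.11 (SE 0.046, limma adjusted p = 0.848). The half-width of the 95% intervals, which are not adjusted for the number of genes, ran from 0.065 for GPI to 0.26 for ENO2.

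In all, 24 of the 33 genes were called in at least 1 of the 4 pairwise comparisons, where 31.8% of all genes and 64.9% of the brightest 25% were. The other 9 were PGK1, PGAM1, LDHB, PDK1, CA9, ADM, P4HA1, EGLN1 and ANKRD37, and their changes lay between -0.20 and 0.13 on the log2 scale. They include enzymes and hypoxia-induced genes alike, and CA9, PDK1, PGK1, ADM, P4HA1 and ANKRD37 are known HIF targets. HIF targets and hypoxia-induced genes were also among those called. On withdrawal in both lines BNIP3, BNIP3L and NDRG1 rose, while VEGFA and EGLN3 fell. HIF activity was not tested. Only BNIP3, BNIP3L and SLC2A3 had a called change of 1.5-fold or more.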

How the data were processed

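The authors deposited normalized array intensities per gene for 12 arrays, made by RMA per the submitters' processing notes. The sources used here give neither the array type nor the annotation and software versions. Genes are Ensembl IDs, and the 33 members were found by ID. The deposited intensities were taken to log2 without a pseudocount. RMA summarises several probes per gene, so a value is no absolute amount and small changes may be compressed. Groups came from the sample labels. A single linear model over all 12 arrays (limma 3.58.1, R 4.3.3, empirical Bayes with an intensity trend, all 21996 genes) gave every comparison, with Benjamini-Hochberg adjustment over all genes, a threshold of 0.05 and two-sided tests; the steps were tested on simulated data. Array values are given for called members (at most 8 per direction and comparison) and for HIF1A, LDHA, HK2, SLC2A1, PDK1 and VEGFA. Promoters came from RefSeq. The members, roles and lists were chosen with earlier results of these data known. Alternatives were other prior variances, filters, scalings, array weights, blocking, a pseudocount of 16 and each array left out. Lists of other pathways and markers named only by symbol were not analysed here. The number of arrays limits the precision.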

Additional observations from a re-analysis of the deposited data

How the results depend on the processing

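Of 945 recomputed values of called changes over 21 alternatives, 849 kept their direction and call and none turned direction. Of 120 changes that were not called, 13 were called under at least 1 alternative. The number of genes that fell in empty vector cells was 12, and over the settings other than leaving out arrays it ran from 6, with a prior variance without a trend, to 15, after centring on array medians or with array weights. It ranged from 7, without empty vector GM-CSF replicate 2, to 13 with single arrays left out. The number lower in K89E cells with GM-CSF kept was 1 (ENO2). It was 0 with a prior variance without a trend, 3 without the dimmest 33.3% of genes, 3 after quantile normalization, 5 with array weights, and 0 to 2 with single arrays left out (0 without K89E GM-CSF replicate 2 or 3 or empty vector replicate 3 of either condition, 2 without K89E replicate 1 of either condition or empty vector withdrawn replicate 1). The difference of withdrawal responses was called for 0 genes with any single array left out. Replicate numbers were not taken to pair the arrays, since not every pair of equal number had a correlation of deviations over 0.1. The correlation ran from -0.20 to 0.23 for equal numbers and from -0.21 to 0.20 for unequal ones, and 16 of 36 comparisons had their own number as best match, where 12 would come by number alone. Within a line, the 6 pairs of equal number gave 0.046 to 0.23, all above 0, and 10 of 12 pairs of unequal number lay below 0, from -0.21 to 0.11 in all. Deviations within a group sum to 0, so the values for equal and unequal numbers are not separate observations. With the replicate number as a block the count lower with GM-CSF was 0, and 1 gene, SLC2A3, was called for the difference of responses (limma adjusted p = 0.0303). This block gave both lines the same effect per replicate number, so a pairing within each line was not tested. The block also ended the calls of SLC16A3 on withdrawal in empty vector cells (limma adjusted p = 0.0634), PFKL on withdrawal in K89E cells (0.0553) and ENO2 between the lines with GM-CSF (0.0693). The cause of these shifts was not tested. The number of arrays limits the precision.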
